A study of Mus musculus with 2 samples.

Results

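Matrix metalloproteinases (MMPs), ADAMTS proteases, the ADAMTS-like proteins and the tissue inhibitors of metalloproteinases (TIMPs) were taken from the feature list of a single-cell RNA sequencing study of the mouse thoracic aorta. Every symbol that began with Mmp, Adamts, Adamtsl or Timp and went on with a digit was a member, which gave 50 of 32287 features. Of these, 42 had 20 or more unique molecular identifiers (UMIs, each counting 1 captured RNA molecule) in all analysed cells, 29 had 200 or more, 8 had fewer than 20 and 5 of those 8 had none. The members without a UMI were Mmp1b, Mmp7, Mmp10, Mmp20 and Mmp21, and Adamts13 held 1 UMI and Adamts18 and Mmp24 held 2 each. Together the members held 240552 UMIs, 0.350% of all UMIs analysed.

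Both samples were thoracic aortas of wild-type GFPiSMC mice on the C57BL/6J strain, 12 weeks old, and each aorta came from 1 male mouse. The mice carried a Cre recombinase driven by the Myh11 promoter and inducible by tamoxifen, with the mT/mG membrane reporter. Both mice were injected with 1 mg of tamoxifen daily over 5 days from the age of 3 weeks, per the labels. The study's methods describe later starts of tamoxifen for its mice, and a higher daily dose for all but a subgroup. After enzymatic digestion at low temperature, live singlets were sorted irrespective of GFP, so the cells analysed were not limited to SMCs. There was 1 group of 2 aortas and no untreated or mutant sample was analysed here, so the comparisons below are between cell types within the same aortas.

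MMPs and ADAMTS proteases are secreted or membrane-bound zinc enzymes that cut collagen, elastin, proteoglycans and procollagen. ADAMTS-like proteins share the ancillary domains of the ADAMTS family but lack the protease domain, and several of them bind fibrillin microfibrils. TIMPs occupy the active site of these enzymes, and the balance of protease and inhibitor is a long-standing subject in aneurysm and dissection of the aorta.

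The libraries held 41129166 and 27637874 UMIs after filtering, from 6539 and 4614 cells with medians of 5671 and 5396.5 UMIs. Clusters were named from marker genes as smooth muscle cells (SMCs, 3155 cells), fibroblasts (2702), endothelial cells (1514), myeloid cells (1479), lymphocytes (985), mesothelial cells (432) and erythroid cells (37), and 849 cells stayed unnamed. Each name means cells that resemble the type by its markers. The members had no part in the clustering. Levels are given in CPM (the UMIs of a gene scaled to 1000000 UMIs) of a cell type in aorta 1 and then in aorta 2. Free RNA was gauged in lymphocytes, whose level of the 6 SMC markers was 2.51% to 5.16% of that in SMCs and of the 6 fibroblast markers 0.564% to 2.64% of that in fibroblasts.

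All 37 members that passed the filter on low counts differed among the cell types by edgeR's quasi-likelihood F test at an adjusted p below 0.05, against 92.4% of all 13973 genes tested, so a difference among types did not set the members apart. Of the 42 members with 20 or more UMIs, Adamts14, Adamts17, Adamts19, Adamts20 and Mmp25 did not pass the filter and were not tested. Of the 29 members with 200 or more UMIs, fibroblasts had the highest mean level of 18, SMCs of 4, endothelial cells of 3, and mesothelial and myeloid cells of 2 each. Of all 12234 tested genes with as many UMIs, fibroblasts led 13.8%, SMCs 15.5%, endothelial cells 17.2%, mesothelial cells 18.3%, myeloid cells 14.8% and lymphocytes 20.3%. The leading type was the same in both aortas for 27 of the 29, and differed between them for Mmp16 and Timp4. It differed from the next type at an adjusted p below 0.05 for 18 members, against 50.5% of those genes, and by more than 2-fold as well for 15, against 23.8%. Counted as shares of a gene's UMIs over all analysed cells, fibroblasts held 96.8% (96.3% to 97.2%) and 97.6% (97.0% to 98.1%) of Mmp3, and myeloid cells held 98.4% (97.4% to 99.1%) and 99.5% (98.6% to 99.9%) of Mmp12. SMCs, the most numerous type, held 15.9% (15.6% to 16.3%) and 15.9% (15.5% to 16.3%) of Timp2 and 86.6% (84.0% to 88.9%) and 87.1% (84.1% to 89.8%) of Mmp17. These exact binomial 95% intervals cover counting error only, and the shares move with the number of cells of a type recovered. The heat map of levels by cell type and aorta shows this distribution.

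**Figure D1:**
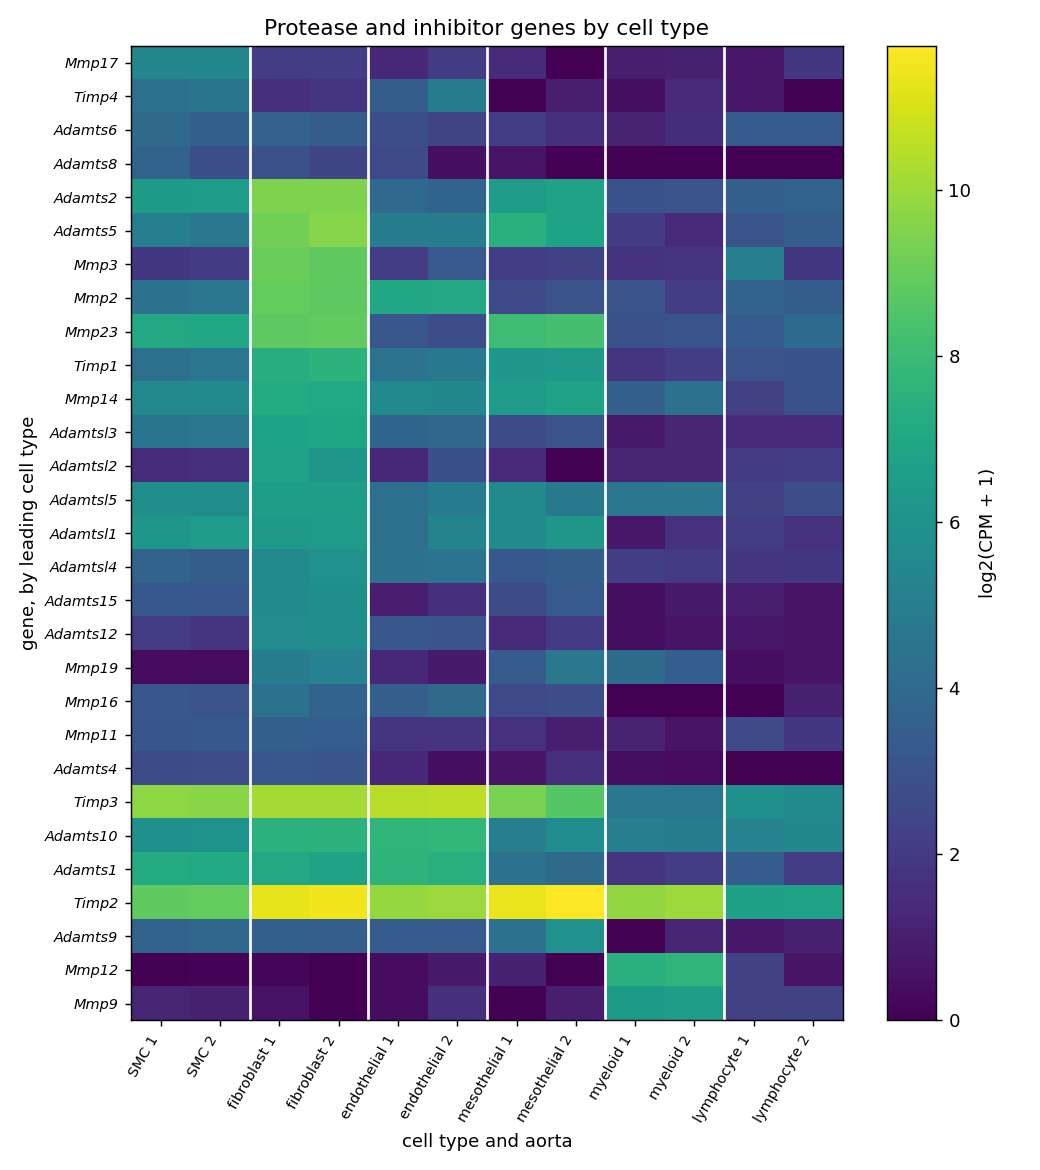
Levels of the 29 members with 200 or more UMIs, as log2(CPM + 1) by colour, in 6 cell types of both aortas (columns), with genes (rows) ordered by leading cell type. The block of 18 genes led by fibroblasts fills most of the map, and Mmp12 and Mmp9 stand out in myeloid cells.

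SMCs, the contractile cells of the media, were first set against fibroblasts, the main matrix cells of the adventitia. Fibroblasts were higher for 20 of the 37 members tested and SMCs for 3, where a call needed an adjusted p below 0.05 and more than a 2-fold difference. Over all genes the shares were 16.0% higher in fibroblasts and 10.1% higher in SMCs. The median log2 fold change of the members, SMC over fibroblast, was -1.58, and stayed at -1.58 with genes at 0 UMIs set to the limit that 3 UMIs allow, beside -0.08 over all genes. With DESeq2's scaling, the median over all genes moved to -0.31 and the SMC share of all calls from 38.6% to 28.8%.

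**Figure D2:**
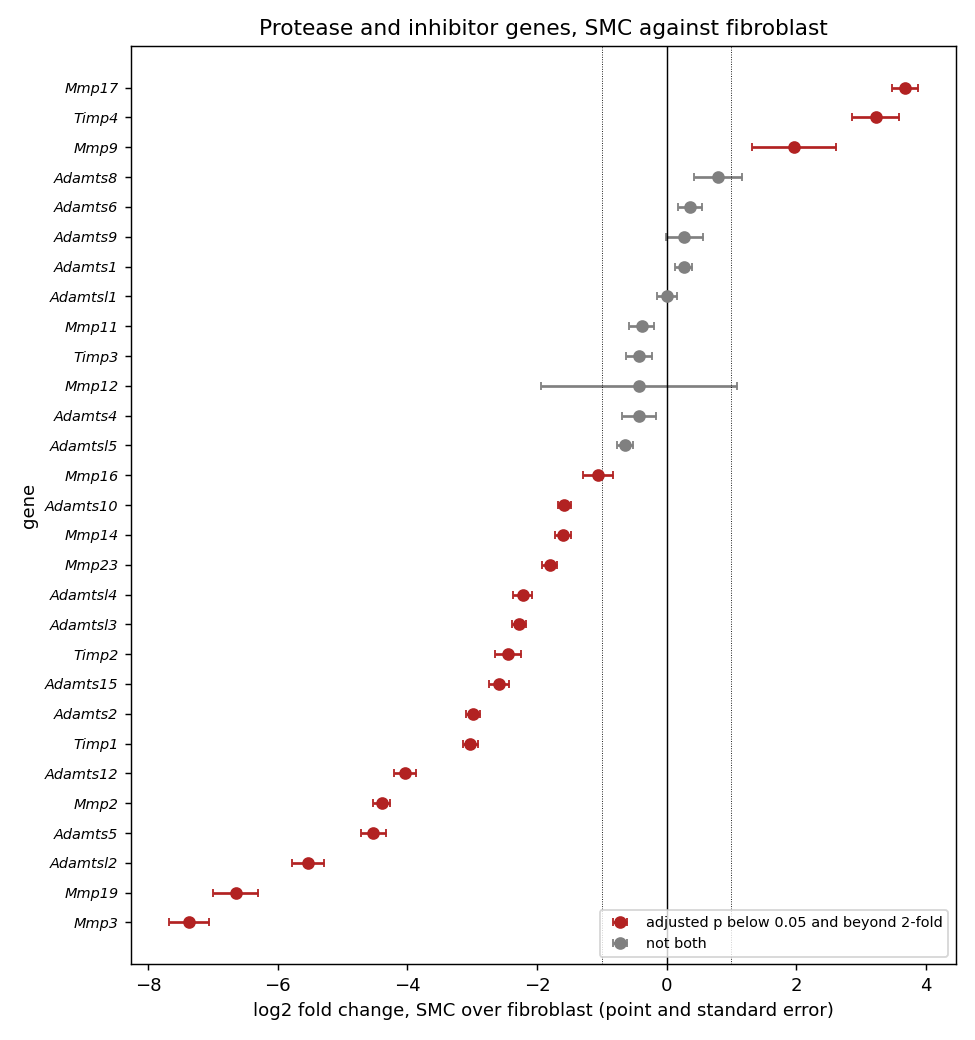
The log2 fold change of each member with 200 or more UMIs, SMC over fibroblast (horizontal axis, point and standard error), with genes on the vertical axis. The standard error was derived from edgeR's fold change and F statistic over both aortas. Red points passed both thresholds, and they run from -7.37 for Mmp3 to 3.68 for Mmp17.

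Collagenases cut fibrillar collagen across its triple helix. Mmp13 (collagenase 3) reached 17.7 and 20.7 CPM in myeloid cells, and was at 0 UMIs in lymphocytes, so myeloid cells were at least 30.1-fold higher with 3 UMIs as the limit. Mmp8 (neutrophil collagenase) held 80 UMIs in all, and its level in myeloid cells was 4.31 and 14.4 CPM. Both genes were therefore found almost wholly in myeloid cells, and neither had more than 1 UMI in SMCs or fibroblasts.

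Gelatinases cut denatured collagen and basement membrane. Mmp2 (gelatinase A) was at 493 and 459 CPM in fibroblasts and, in endothelial cells, at 128 and 134 CPM, while SMCs had 20.6 and 23.4 CPM, and the 3 types did not overlap. Its log2 fold change, SMC over fibroblast, was -4.40 ± 0.13, adjusted p = 4.97e-17. Mmp9 (gelatinase B) was at 84.2 and 90.6 CPM in myeloid cells and at 3.67 and 3.89 CPM in lymphocytes. SMCs held 21 and 12 UMIs of Mmp9 and fibroblasts 5 and 0, and the call of SMC over fibroblast (1.97 ± 0.64, adjusted p = 0.0139) was lost without the SMC sum of aorta 1 (adjusted p = 0.0734) and without the fibroblast sum of aorta 2 (adjusted p = 0.110). The SMC level of Mmp9, at 1.32 and 1.07 CPM, lay below that of lymphocytes.

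Stromelysins cut proteoglycans, fibronectin and other proteases' pro-forms. Mmp3 (stromelysin 1) had the largest fold change of the 29 members in this comparison, with 549 and 472 CPM in fibroblasts and 2.70 and 3.30 CPM in SMCs (-7.37 ± 0.31, adjusted p = 1.42e-14). The lymphocytes of aorta 1 were at 33.0 CPM of Mmp3 against 2.78 CPM in aorta 2. A single cell of 20673 UMIs held 92 of those 99 UMIs, and without it the level was 2.35 CPM, a value chosen after the data were seen, beside 2.32 and 2.49 CPM in myeloid cells. Mmp11 (stromelysin 3) was low, at 11.3 and 10.5 CPM in fibroblasts and 7.85 and 8.39 CPM in SMCs, and did not pass the test between them (-0.39 ± 0.20, adjusted p = 0.109).

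Mmp12 (macrophage elastase), which cuts elastin, was at 173 and 203 CPM in myeloid cells and at 4.004 and 0.556 CPM in lymphocytes. Mmp12 and Mmp13 lie in a run of MMP genes on mouse chromosome 9 that also holds Mmp3 (GRCm38; Mmp13 at chr9:7272514-7283331, Mmp12 at chr9:7344381-7369499 and Mmp3 at chr9:7445822-7455975, all on the plus strand). The 100 bases before a RefSeq start of each gene are printed here because these neighbours were detected in different cell types, Mmp3 in fibroblasts and the other two in myeloid cells. Capitals mark the letters TGANTCA, the core bound by AP-1 factors, which read as the same motif on both strands. The stretches lie on GRCm38.p6 at chr9:7445722-7445821 for Mmp3, chr9:7347274-7347373 for Mmp12 and chr9:7272414-7272513 for Mmp13, plus strand.
Mmp3: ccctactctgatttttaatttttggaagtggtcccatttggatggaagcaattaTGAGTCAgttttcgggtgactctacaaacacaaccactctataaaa
Mmp12: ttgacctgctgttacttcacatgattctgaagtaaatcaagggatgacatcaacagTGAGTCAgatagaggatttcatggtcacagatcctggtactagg
Mmp13: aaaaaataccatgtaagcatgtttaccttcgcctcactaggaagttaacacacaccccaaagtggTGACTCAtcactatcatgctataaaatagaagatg
The motif began 46 bases before the start in Mmp3, 44 in Mmp12 and 35 in Mmp13. Mmp8, led by myeloid cells, and Mmp27, led by fibroblasts, lie in the same run (chr9:7558456-7568485 and chr9:7571396-7581885, plus strand), and these letters were not in the window of either. Mmp12 has 2 starts in the RefSeq table and only the one shown, which lies inside the annotated gene, had it. RefSeq rows were found for 35 of the 50 members. In the 250 bases before the start, 7 of their 38 promoters (18.4%) held the motif, 1 for each of 7 genes (also Mmp1b, Mmp7, Mmp10 and Mmp20, which had no UMI), and 6.75% of all 32851 promoters of that length did. All 7 genes lie in this run on chromosome 9, and no matched promoter of a member elsewhere held the motif. The 18.4% therefore describes 1 run of neighbouring genes and not the family as a whole. A match of letters is a description and not a measured binding site.

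Membrane-type MMPs act at the cell surface. Mmp14 (MT1-MMP), an activator of the Mmp2 pro-form, was at 149.6 and 139 CPM in fibroblasts, 89.6 and 106 CPM in mesothelial cells and 45.7 and 47.3 CPM in SMCs (-1.59 ± 0.12, adjusted p = 4.54e-10 for SMC over fibroblast). Mmp17 (MT4-MMP, anchored by a lipid) went the other way, with 42.5 and 43.5 CPM in SMCs and 3.43 and 3.44 CPM in fibroblasts (3.68 ± 0.20, adjusted p = 2.98e-12). It was the most SMC-biased of the 29 members in this comparison. Mmp16 (MT3-MMP) was at 19.7 and 12.4 CPM in fibroblasts and 8.10 and 7.05 CPM in SMCs (-1.05 ± 0.23, adjusted p = 7.57e-04), and without the fibroblast sum of aorta 1 it lost the call (adjusted p = 0.0798). Endothelial cells, at 10.7 and 15.4 CPM of Mmp16, were above fibroblasts in aorta 2, and the difference between these types did not pass the test (adjusted p = 0.180). Mmp15 (138 UMIs) led in endothelial cells and Mmp25 (23 UMIs) in lymphocytes.

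Of the other MMPs, Mmp23 was at 446 and 486 CPM in fibroblasts, 270.4 and 311 CPM in mesothelial cells and 134 and 125 CPM in SMCs (-1.80 ± 0.11, adjusted p = 1.14e-11). Mmp19 was at 30.6 and 36.1 CPM in fibroblasts and 0.314 and 0.268 CPM in SMCs (-6.65 ± 0.35, adjusted p = 1.17e-12). Fibroblasts and SMCs did not overlap for either gene. Mmp27 (105 UMIs) led in fibroblasts and Mmp28 (40 UMIs) in endothelial cells.

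The ADAMTS proteases that cut aggrecan and versican were split between types. Adamts5 was at 607 and 780.2 CPM in fibroblasts and 32.9 and 24.7 CPM in SMCs (-4.53 ± 0.19, adjusted p = 2.05e-14). Adamts15 followed the same order, at 47.5 and 55.9 CPM in fibroblasts and 8.42 and 8.12 CPM in SMCs (-2.59 ± 0.15, adjusted p = 7.80e-12). Both were fibroblast-led without overlap. Adamts1 was at 195 and 161 CPM in endothelium, 148 and 139 CPM in SMCs and 137 and 108 CPM in fibroblasts. Endothelial cells against SMCs did not pass the test (adjusted p = 0.411), nor did SMCs against fibroblasts (0.27 ± 0.13, adjusted p = 0.0903), which passed under 2-fold with the aorta as a replicate block (adjusted p = 0.0222). Adamts1 (chr16:85793827-85803113) and Adamts5 (chr16:85856173-85901828) lie near each other on the minus strand of chromosome 16 in GRCm38, and their levels by cell type were not alike.

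Adamts4, Adamts8 and Adamts9 were low and did not pass the test between SMCs and fibroblasts. Adamts4 was at 5.46 and 5.89 CPM in SMCs and 8.18 and 7.47 CPM in fibroblasts (-0.43 ± 0.26, adjusted p = 0.173). Adamts8 was at 12.2 and 6.16 CPM in SMCs and 6.47 and 4.48 CPM in fibroblasts (0.79 ± 0.36, adjusted p = 0.0759), and passed under 2-fold with the aorta as a replicate block (adjusted p = 0.0101) and over 2-fold with doublets kept (adjusted p = 0.0345), without the SMC sum of aorta 2 (adjusted p = 0.0154) and under a stricter naming rule that left out fibroblast cluster 1 (1.42, adjusted p = 0.00821). Adamts9 was at 12.4 and 14.0 CPM in SMCs and 11.6 and 10.8 CPM in fibroblasts (0.27 ± 0.28, adjusted p = 0.441), and led in mesothelial cells at 20.5 and 60.5 CPM, where the aortas lay far apart. Adamts20 (26 UMIs) had its highest mean in fibroblasts, although mesothelial cells were higher in aorta 1, and it was not tested.

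Procollagen N-proteinases remove the amino-terminal propeptide so that collagen can form fibrils. Adamts2 was at 701 and 709 CPM in fibroblasts and 82.5 and 89.9 CPM in SMCs (-2.99 ± 0.11, adjusted p = 1.16e-15). The aortas agreed closely in both types. Adamts3 (120 UMIs) led in fibroblasts, and Adamts14 (61 UMIs) had its highest mean in lymphocytes, where its level was 3.67 and 1.11 CPM. That lead was in aorta 1 only. Fibroblasts, at 1.21 and 1.19 CPM of Adamts14, were higher in aorta 2, where lymphocytes held 2 UMIs.

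Among the other ADAMTS proteases, Adamts10, which binds fibrillin, was at 203 and 219 CPM in endothelium, close to the 182 and 191 CPM of fibroblasts, and the difference did not pass the test (adjusted p = 0.758). SMCs were lower, at 58.4 and 63.1 CPM (-1.58 ± 0.10, adjusted p = 2.46e-11 against fibroblasts). Adamts12 was at 49.7 and 53.2 CPM in fibroblasts and 3.39 and 2.50 CPM in SMCs (-4.04 ± 0.17, adjusted p = 3.02e-14). Adamts6 was at 15.5 and 11.7 CPM in SMCs, 11.7 and 10.2 CPM in fibroblasts and 9.68 and 8.90 CPM in lymphocytes, and SMCs did not pass against fibroblasts (0.36 ± 0.19, adjusted p = 0.118). Adamts16 (79 UMIs) had 78 UMIs in fibroblasts and 0 in SMCs, at least 42.5-fold higher in fibroblasts with 3 UMIs over both aortas as the limit. Adamts7 (128 UMIs) and Adamts17 (73 UMIs) led in fibroblasts. Adamts19 (29 UMIs) had its highest mean in mesothelial cells, at 2.21 and 0.991 CPM from 4 and 1 UMIs. Fibroblasts held 13 and 9 UMIs of Adamts19, at 1.31 and 1.34 CPM, and were the higher type in aorta 2.

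Of the ADAMTS-like genes, fibroblasts were higher for Adamtsl2, Adamtsl3 and Adamtsl4. Adamtsl2 was at 108 and 73.5 CPM in fibroblasts and 1.82 and 1.96 CPM in SMCs (-5.54 ± 0.24, adjusted p = 7.14e-14). Adamtsl3 was at 112 and 123 CPM in fibroblasts and 22.3 and 24.9 CPM in SMCs (-2.27 ± 0.11, adjusted p = 6.57e-14). Adamtsl4, which is linked to fibrillin microfibrils, was at 48.3 and 60.5 CPM in fibroblasts and 12.3 and 9.91 CPM in SMCs (-2.22 ± 0.15, adjusted p = 3.18e-11). Adamtsl5 was at 90.5 and 90.5 CPM in fibroblasts and 55.6 and 56.8 CPM in SMCs, a difference past the p threshold and under 2-fold (-0.64 ± 0.13, adjusted p = 1.98e-04). Adamtsl1 was at 77.1 and 89.8 CPM in fibroblasts and 73.4 and 88.8 CPM in SMCs, with ranges that overlapped (0.00 ± 0.16, adjusted p = 1).

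The TIMPs carried most of the family's UMIs, since Timp2 and Timp3 together held 56.3% of them. Timp2, which also takes part in Mmp2 activation on Mmp14, was at 2699 and 3415 CPM in mesothelial cells and 2544 and 2883 CPM in fibroblasts, a difference that did not pass the test (adjusted p = 0.924). Its level was 939 and 1033 CPM in endothelium, 906 and 1037 CPM in myeloid cells and 468 and 501 CPM in SMCs (-2.44 ± 0.20, adjusted p = 8.90e-10 for SMC over fibroblast). SMCs were thus the lowest of these 5 types. Timp3, which binds to the matrix, was at 1437 and 1499 CPM in endothelium, 1153 and 1158 CPM in fibroblasts and 861 and 809 CPM in SMCs. Endothelial cells against fibroblasts did not pass the test (adjusted p = 0.411), nor did SMCs against fibroblasts (-0.42 ± 0.20, adjusted p = 0.0751), although the ranges did not overlap, and the latter passed under 2-fold with the aorta as a replicate block (adjusted p = 0.00936).

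Timp1 was at 159.8 and 192 CPM in fibroblasts, 75.2 and 80.3 CPM in mesothelial cells and 18.8 and 23.0 CPM in SMCs (-3.03 ± 0.12, adjusted p = 9.82e-15). Timp4 was the TIMP higher in SMCs, at 18.7 and 22.7 CPM against 2.02 and 2.54 CPM in fibroblasts (3.23 ± 0.36, adjusted p = 1.86e-07). Endothelial cells had 10.05 and 30.1 CPM of Timp4, and the aortas lay far apart there. Summed over genes, the UMIs of the 4 TIMPs per UMI of an MMP or ADAMTS gene were 4.61 and 4.70 in mesothelial cells, 3.49 and 3.82 in endothelial cells, 2.50 and 2.53 in myeloid cells, 2.11 and 2.15 in SMCs, 1.10 and 1.18 in fibroblasts and 1.09 and 1.18 in lymphocytes. Erythroid cells, at 2.5 and 1, are left out of this order. Of the types listed, fibroblasts and lymphocytes were the lowest. The lymphocyte ratio of aorta 1 was 1.20 without the single cell that held most of the Mmp3 there. The TIMP sum of lymphocytes was 169 and 161 CPM, against 3858 and 4236 CPM in fibroblasts, and the part of free RNA in the lymphocyte ratio was not tested. The order of the other 4 types was the same in both aortas, and the ratio is of RNA molecules captured, not of protein.

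In endothelial cells against SMCs, 4 of the 37 members were higher in endothelial cells (Adamts10, Adamts12, Mmp2 and Mmp28; 16.0% of all genes) and 11 in SMCs (13.8%). The count of 4 became 2 with 5000 to 25000 UMIs per cell and 7 with DESeq2, which moved the endothelial share of all calls from 53.6% to 61.1%. The median log2 fold change was -0.02, beside 0.0015 over all genes. For Mmp2 the log2 fold change, endothelial over SMC, was 2.41 ± 0.13, adjusted p = 9.55e-13, and for Mmp17 it was -4.40 ± 0.29, adjusted p = 4.44e-11. Against fibroblasts, endothelial cells were higher for Mmp28 and Timp4 (11.4% of all genes) and lower for 23 members (14.5%), with a median of -1.72 (-1.80 with zeros at the limit) beside -0.03 over all genes. The comparisons share their SMC and fibroblast sums.

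Mesothelial cells, the lining of the outer surface, were higher than fibroblasts for 1 member, Adamts9 (10.5% of all genes), and lower for 25 (13.9%). The Adamts9 call was lost without the mesothelial sum of aorta 2, and the count was 2 with doublets kept. The median log2 fold change of the members was -2.15 (-2.24 with zeros at the limit), beside -0.12 over all genes. The log2 fold change, mesothelial over fibroblast, of Adamts1 was -2.94 ± 0.23, adjusted p = 1.69e-09, and that of Mmp2 was -6.58 ± 0.22, adjusted p = 7.47e-16, while Timp2 did not pass.

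Myeloid cells were higher than lymphocytes for 8 members (18.1% of all genes) and lower for 7 (13.5%), with a median log2 fold change of -0.48 (-0.57 with zeros at the limit) beside 0 over all genes. With DESeq2's scaling, the myeloid share of all calls moved from 57.2% to 47.7%, and the median over all genes to -0.18. The 8 were Adamtsl5, Mmp8, Mmp9, Mmp12, Mmp13, Mmp14, Mmp19 and Timp2. The 7 were Adamts1, Adamts5, Adamts6, Mmp3, Mmp11, Timp1 and Timp3, and this count fell to 2 without the lymphocyte sum of aorta 1 and to 2 to 4 with doublets kept, with no UMI limits or at Leiden resolution 0.5. It was 4 without the single lymphocyte of aorta 1 described for Mmp3, a fit added after the data were seen, where Mmp3 (adjusted p = 1), Timp3 (adjusted p = 0.0871) and Adamts5 (adjusted p = 0.0649) lost the call.

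Lymphocyte levels of 5 of these 7 were a few percent of the leading type's. For Timp3, lymphocytes were at 58.4 and 46.7 CPM, or 3.58% of the endothelial level, and for Adamts1 at 3.66% of it. Both shares lay above the 0% to 2.84% for the 6 endothelial markers and inside the 2.51% to 5.16% for SMC markers. Adamts5 was at 1.25% of the fibroblast level, inside the 0.564% to 2.64% of the fibroblast markers. Timp1, at 3.89%, and Mmp3, with the single cell counted, at 3.51%, were above that range. For Mmp11 the share was 35.8% of the fibroblast level and for Adamts6 68.3% of the SMC level, above all these ranges. The part of free RNA in the lymphocyte calls was not tested.

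Against fibroblasts, myeloid cells were higher for Mmp8, Mmp9, Mmp12 and Mmp13 (18.5% of all genes) and lower for 31 members (22.4%), with a median of -4.53 (-4.19 with zeros at the limit) beside -0.0062 over all genes.

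Levels also varied among clusters of 1 cell type. These are descriptions with no test, given for clusters with at least 10 cells in each aorta. Among fibroblasts, Adamts5 was highest in cluster 10 (led by Pla1a and Dact2), at 1947 and 1873 CPM, and lowest in cluster 20, at 23.2 and 0 CPM. Adamts16 was at 32.3 and 25.5 CPM in cluster 10 and at no more than 0.249 CPM in the other clusters. Mmp3 ran against this, with 33.9 and 55.2 CPM in cluster 10 and 887 and 818 CPM in cluster 1 (led by Dio2 and Fmod). In cluster 15 the aortas differed, at 197 and 694 CPM of Mmp3.

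Adamts2 was highest in fibroblast cluster 1, at 946 and 1092 CPM, and Mmp2 in cluster 20 (led by Chrm2 and Mab21l2), at 844 and 698 CPM. Timp2 was at 3601 and 3939 CPM in cluster 10 and 888 and 742 CPM in cluster 20. So cluster 20 had the most Mmp2 and the least Timp2, Mmp3 and Adamts5 of the 6 clusters in both aortas.

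**Figure D3:**
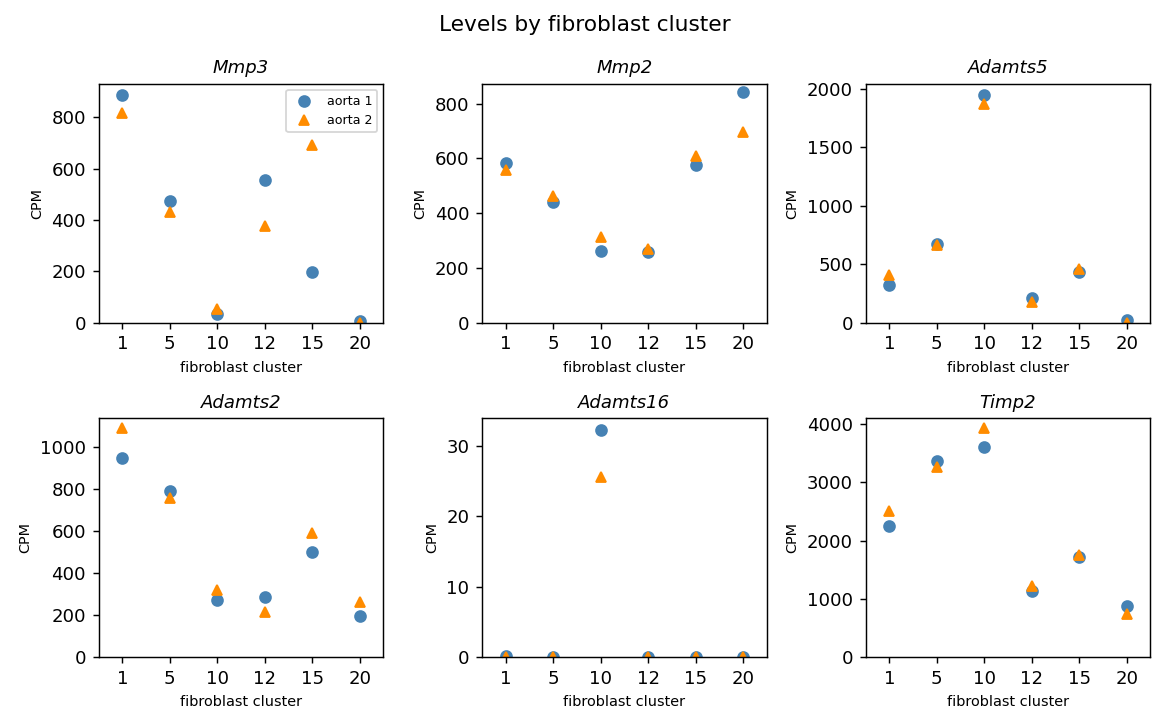
CPM (vertical axes, from 0) of Mmp3, Mmp2, Adamts5, Adamts2, Adamts16 and Timp2 in the 6 fibroblast clusters (horizontal axes), with 1 point for each aorta. Adamts5 and Adamts16 peak in cluster 10, where Mmp3 is near its lowest.

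Among SMCs, Adamtsl1 was at 301 and 298 CPM in cluster 2 (led by Msx2 and Dlx6) and at 2.44 and 3.77 CPM in cluster 0. Adamts4 showed the same contrast, at 20.2 and 18.2 CPM in cluster 2 and 0.957 and 0.808 CPM in cluster 0. Mmp2 was at 52.5 and 59.6 CPM in cluster 2 and 10.4 and 7.14 CPM in cluster 0, and Adamts8 went the other way, at 2.39 and 1.54 CPM in cluster 2 and 15.9 and 8.35 CPM in cluster 0. The near-equal SMC and fibroblast means of Adamtsl1 therefore rest on 1 SMC cluster.

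SMC cluster 16, led by the stress genes Gdf15, Cdkn1a and Mdm2 and with a median of 2348 UMIs, had 132 and 310.1 CPM of Timp1 against 15.8 and 11.7 CPM in cluster 0. The part of those stress genes in the Timp1 level was not tested. SMC cluster 26 (Pln, Kcna5 and Notch3) had 110.2 and 75.6 CPM of Timp4 against 17.6 and 20.6 CPM in cluster 0.

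Endothelial cluster 18, led by the lymphatic genes Ccl21a, Mmrn1 and Prox1, had 341 and 363 CPM of Adamtsl1 and 291 and 229 CPM of Adamts5. The largest endothelial cluster, 3, had 1.02 and 1.99 CPM of Adamtsl1 and 12.3 and 9.95 CPM of Adamts5. Cluster 18 was low in Mmp2, at 6.20 and 15.8 CPM against 155 and 166 CPM in cluster 3. Cluster 21 (Gpihbp1, Rbp7 and Car4) had 89.3 and 512 CPM of Timp4 and 48.1 and 86.9 CPM of Mmp15, and its Timp4 levels in the aortas lay far apart.

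The myeloid MMPs fell into separate clusters. Cluster 13 (Cd207, H2-M2 and Dnase1l3) had 1419 and 1529 CPM of Mmp12 and 138 and 140.2 CPM of Mmp13, and it was at 0 for Mmp9. Cluster 23, led by the neutrophil genes S100a8, S100a9 and Cxcr2, had 1372 and 1541 CPM of Mmp9 and 209.5 and 702 CPM of Mmp8. The resident macrophage genes Folr2, Cd163 and Mrc1 led cluster 4, which had 123 and 119.7 CPM of Mmp9. Mmp19 was highest in cluster 17 (Cd209a and Ccr2), at 87.0 and 39.5 CPM.

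**Figure D4:**
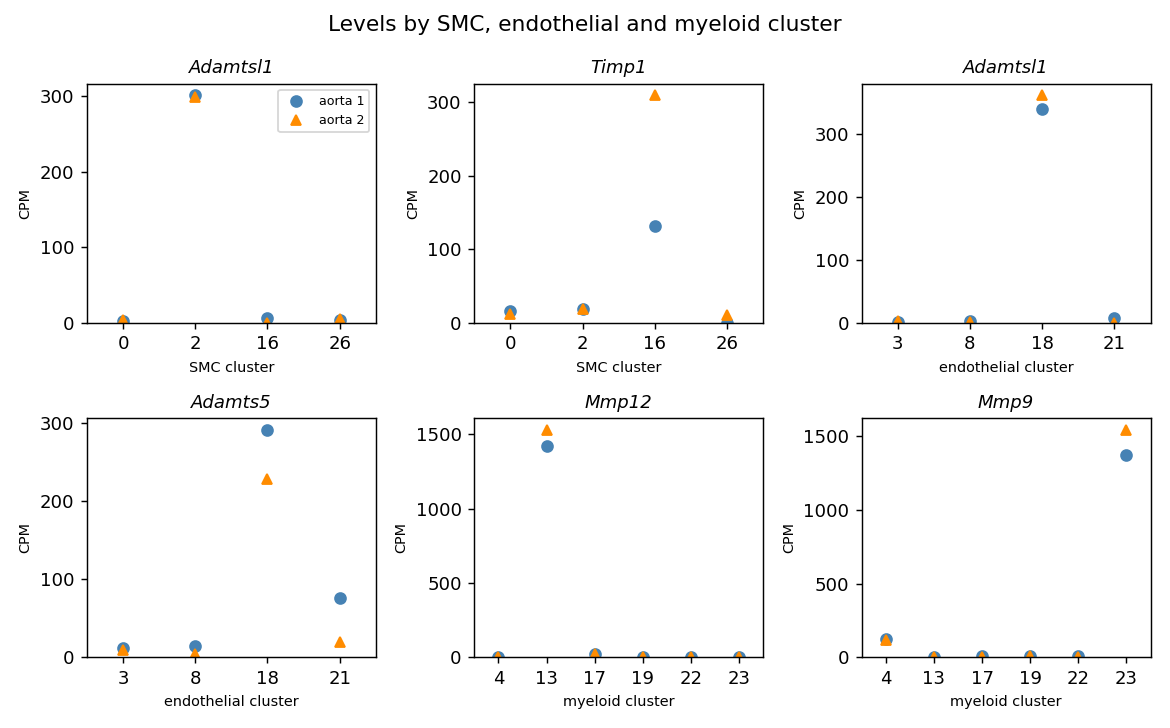
CPM (vertical axes, from 0) by cluster (horizontal axes) for Adamtsl1 and Timp1 in SMCs, Adamtsl1 and Adamts5 in endothelial cells, and Mmp12 and Mmp9 in myeloid cells, with 1 point for each aorta. In each panel 1 cluster stands above the others in both aortas.

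A related list of 34 genes that regulate or accompany these enzymes was set between SMCs and fibroblasts in the same fit, beside the same shares over all genes (10.1% and 16.0%). Of the 32 tested, 3 were higher in SMCs and 16 in fibroblasts, with a median log2 fold change of -1.28. Those higher in SMCs included Serpine2 (3.49 ± 0.18, adjusted p = 6.28e-13), a secreted inhibitor of serine proteases, and Plaur (1.73 ± 0.18, adjusted p = 4.19e-08), the urokinase receptor. Pcolce, the procollagen C-proteinase enhancer, and Pcsk6, a proprotein convertase, were among the 3 with the largest fold changes toward fibroblasts (-6.58 ± 0.17, adjusted p = 1.59e-17 and -6.23 ± 0.17, adjusted p = 3.70e-17). The other was Tfpi2, with 0 UMIs in SMCs and 4.24 and 7.92 CPM in fibroblasts. Reck, a membrane inhibitor of MMPs, was also higher in fibroblasts (-1.64 ± 0.10, adjusted p = 1.16e-11).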

How the data were processed

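The deposited values were raw UMI counts per gene and cell, made by the authors with Cell Ranger 4.0.0 (matrix header) against mm10, and the submitters' notes also name Seurat 4.0. Cells with more than 200 genes, 1000 to 25000 UMIs and under 10% mitochondrial UMIs were kept. Scrublet doublets (205 and 84 cells) were removed. The libraries shared 18 barcodes. Cells were clustered in scanpy 1.11.5 (2000 variable genes without the members and the related list, 30 components, Leiden resolution 1) and named from markers of 11 classes, so names are marker-based and can differ from the study's.

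UMIs were summed per aorta and type and tested over all genes with edgeR 4.0.16 (TMM, filterByExpr, quasi-likelihood, two-sided, Benjamini-Hochberg), checked on simulated data. The simulation had 1 spread for all genes, unpaired sums and 200 genes changed in SMCs alone. It therefore does not speak to paired sums or to types that differ in most genes. DESeq2 1.42.0, other filters and clusterings, left-out sums and a fit with the aorta as a replicate block were alternatives. Same-numbered sums come from 1 animal, which pairs them, and deviations of types within an aorta correlated at -0.173 to 0.47, median 0.144. Fold changes carry a standard error and n = 2 aortas. That error was derived as the absolute log2 fold change over the square root of the quasi-likelihood F statistic. Cells are not replicates.

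Members with 200 or more UMIs are given in full, those with 20 to 199 by UMIs and leading type (more where a result turns on them), and the rest as counts. Of the related list, the 3 largest called fold changes in each direction are named, except 1 that is not reported here, and Reck was added after its value was seen. The members and lists were chosen with earlier results of these data known. Positions are from GENCODE M21 (GRCm38, the same assembly as mm10), where all 50 IDs matched and 0 members shared an exon with another gene on their strand.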

Additional observations from a re-analysis of the deposited data

Results flagged for a closer look

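A pair of values came from cells that stayed unnamed and entered no comparison. Mmp17 had 87 UMIs in unnamed cluster 6 (757 cells, median 1793 UMIs, low-UMI cells that scored as SMC), at 53.6 and 49.0 CPM, above every named type in both aortas, SMCs included (42.5 and 43.5 CPM). Whether this excess over SMCs exceeds the counting error of so few UMIs was not tested. Adamts1 had 9 UMIs in unnamed cluster 30, at 505 CPM, above every named type. That cluster held 13 cells, all of aorta 1, with a median of 1299 UMIs, and was led by Xist, Ccl4 and Ccl3, with P2ry12 and Sall1 among its leading genes, although male animals were used per the methods. Its origin was not tested.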

How the results depend on the processing

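Of 232 counts of calls recomputed under other settings, 221 stayed within 1.5 times the count in the report. Members higher in endothelial cells than in SMCs numbered 2 with 5000 to 25000 UMIs per cell and 7 with DESeq2. Members higher in mesothelial cells than in fibroblasts numbered 2 with doublets kept. Members higher in lymphocytes than in myeloid cells numbered 4 with no UMI limits, 2 with doublets kept and 3 at Leiden resolution 0.5. Leaving out 1 sum, an alternative added after the data were seen, gave 0 to 1 members higher in mesothelial cells than in fibroblasts (0 without the mesothelial sum of aorta 2) and 2 to 8 higher in lymphocytes than in myeloid cells (2 without the lymphocyte sum of aorta 1), and the other counts stayed within 1.5 times. Without the 1 lymphocyte with most Mmp3, 4 were higher in lymphocytes than in myeloid cells. Where a lone sum is left, it is taken to vary like the other types, and the looser count filter lets Mmp25 into the test. The stricter naming rule (1 leading marker of another class leaves a cluster unnamed) left under 10 mesothelial cells in aorta 2, so it gave no mesothelial comparison, and it left fibroblast cluster 1 unnamed (622 and 371 cells), which cut the fibroblasts to 978 and 731 cells. Then 18 members were higher in fibroblasts and 4 in SMCs, Adamts8 (log2 fold change 1.42) and Adamts9 (0.73, adjusted p = 0.0183) passed the p threshold toward SMCs, and Mmp11 (-0.58, adjusted p = 0.0297) passed it toward fibroblasts. With the aorta as a replicate block, which pairs the sums, fibroblasts were higher than SMCs for 20 members and no count of calls left the 1.5-fold range. Of 405 fold changes between SMCs and fibroblasts, 382 kept their side of the p threshold, 20 passed it only under the alternative, 3 lost it and 0 reversed. Under the block Adamts1 (adjusted p = 0.0222), Adamts8 (adjusted p = 0.0101) and Timp3 (adjusted p = 0.00936) passed by edgeR. With 1 aorta alone, a value with no test, 4 to 5 members were past 2-fold toward SMCs and 21 toward fibroblasts, against 3 and 20 with both, and 3 to 5 were past 2-fold toward endothelial cells over fibroblasts, against 5. DESeq2's scaling moved the median log2 fold change over all genes from 0.0015 to 0.19 for endothelial cells against SMCs and from -0.0062 to -0.23 for myeloid cells against fibroblasts. Adding the low-UMI cells of unnamed cluster 6 to the SMCs, also chosen after the data were seen, multiplied the SMC level of members over 1 CPM by 0.939 (Adamts12, aorta 1) to 1.09 (Timp1, aorta 2). The cause of these shifts was not tested. Levels of a few UMIs limit the members under 200 UMIs.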

Other observations

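Of the 23 UMIs of Mmp25 (MT6-MMP), 5 and 6 were in lymphocyte cluster 27 (Cxcr6, Icos and Il1rl1), at 45.2 and 70.2 CPM, and its level in the neutrophil-gene myeloid cluster 23 was 10.5 and 61.0 CPM. Within fibroblasts, Adamtsl3 was at 228 and 231 CPM and Adamtsl4 at 115 and 112 CPM in cluster 10, the highest of the 6 clusters for both genes, against 74.8 and 67.9 CPM and 25.4 and 29.5 CPM in cluster 1. Endothelial cluster 21 had 61.8 and 164 CPM of Adamts9, and cluster 3 had 2.05 and 0.663 CPM. In erythroid cells of aorta 1, 15 of the 16 Adamts5 UMIs were in 1 cell, and the level was 103 CPM with it and 7.23 CPM without it, a check added after the values were seen.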
